A study of Homo sapiens with 4 samples.

Results

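FOXA1, FOXA2, FOXA3, HNF4A, HNF4G, ONECUT1, PROX1 and HHEX encode transcription factors that build endoderm and liver. Their promoters were taken by gene symbol, and all 8 were found among the 20242 promoters measured. The data are 4 ChIP-seq libraries, 1 each for H3K27me3 and H3K4me3 in untreated (−Dox) and doxycycline-treated (+Dox) JMJD3c-hESCs. JMJD3c-hESCs descend from SEES-3, a line of human embryonic stem cells. They were made with a stably integrated Tet-responsive construct that encodes JMJD3c, the catalytic part of the H3K27 demethylase JMJD3. The reverse Tet transactivator is present in these cells, so the −Dox and +Dox cells carried the same transgenes. They differed in doxycycline (Dox), given at 1 µg/ml, and were harvested on day 3 in a medium that keeps stem cells undifferentiated. The paper reported that +Dox cells nevertheless changed in morphology, had less of the pluripotency marker SSEA-4 and raised mesoendodermal genes, FOXA2 among them. Direct removal of a mark and a change of cell state therefore cannot be told apart here. Each library was made once, so no difference has a replicate check and no p-value is given. Because bulk cells were measured, a mark lost from some cells and a mark reduced in every cell cannot be told apart.

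H3K27me3 is laid down by Polycomb repressive complex 2 and marks silenced developmental genes, whereas H3K4me3 marks active or poised promoters. In pluripotent cells, many lineage regulators carry both marks and are called bivalent. The FOXA proteins are forkhead pioneer factors that bind closed chromatin and prepare liver genes for expression. HNF4A is a nuclear receptor that drives the hepatocyte program, HNF4G is its paralog in gut and kidney epithelium, and ONECUT1 (HNF6) acts in liver, bile duct and pancreas. HHEX and PROX1 are homeodomain factors needed for the liver bud to form and for its cells to migrate.

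The measured windows run 3 kb to each side of 1 start per gene, and the signal is the summed coverage after scaling to the number of reads in a library. These windows do not capture every promoter of the genes. The HNF4A window (chromosome 20, 42981339 to 42987339, GRCh37) is centered on the upstream start, and the cluster of 13 annotated starts that contains the liver promoter begins 45540 bp downstream, outside the window. The HNF4G start lies 131833 bp from the canonical start. The ONECUT1 window (chromosome 15, 53080275 to 53086275) and the FOXA2 window (chromosome 20, 22563093 to 22569093) are centered 742 and 883 bp from the canonical starts and contain them. For FOXA3 (chromosome 19, 46364584 to 46370584), PROX1 (chromosome 1, 214158316 to 214164316) and HHEX (chromosome 10, 94446712 to 94452712) the deposited start was the canonical one. The FOXA1 transcript could not be placed in the annotation used here. The annotated FOXA1 starts on chromosome 14 span 1797 bp.

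The sequence just upstream of 5 of these starts is shown because CpG-dense promoters are the usual sites of both marks. Each stretch is 250 bases of GRCh37 on the strand of the gene, ends 1 base before the deposited start, and has CG dinucleotides in capitals. The stretches are chr20:22566094-22566343 (FOXA2, minus strand), chr1:214161066-214161315 (PROX1, plus strand), chr10:94449462-94449711 (HHEX, plus strand), chr15:53083276-53083525 (ONECUT1, minus strand) and chr20:42984089-42984338 (HNF4A, plus strand).
FOXA2: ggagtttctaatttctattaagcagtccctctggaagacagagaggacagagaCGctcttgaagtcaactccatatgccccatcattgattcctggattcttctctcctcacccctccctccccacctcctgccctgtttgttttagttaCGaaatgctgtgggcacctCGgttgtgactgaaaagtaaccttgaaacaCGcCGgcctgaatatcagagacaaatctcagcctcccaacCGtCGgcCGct
PROX1: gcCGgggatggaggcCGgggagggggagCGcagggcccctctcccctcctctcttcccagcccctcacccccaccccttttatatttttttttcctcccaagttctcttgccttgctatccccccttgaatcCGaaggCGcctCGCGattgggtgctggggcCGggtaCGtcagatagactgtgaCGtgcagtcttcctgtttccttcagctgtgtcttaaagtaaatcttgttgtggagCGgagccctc
HHEX: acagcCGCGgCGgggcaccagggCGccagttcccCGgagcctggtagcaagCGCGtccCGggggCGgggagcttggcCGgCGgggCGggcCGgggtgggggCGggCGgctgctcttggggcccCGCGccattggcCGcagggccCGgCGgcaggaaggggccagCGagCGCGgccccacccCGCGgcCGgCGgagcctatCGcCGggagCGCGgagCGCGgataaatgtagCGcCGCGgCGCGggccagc
ONECUT1: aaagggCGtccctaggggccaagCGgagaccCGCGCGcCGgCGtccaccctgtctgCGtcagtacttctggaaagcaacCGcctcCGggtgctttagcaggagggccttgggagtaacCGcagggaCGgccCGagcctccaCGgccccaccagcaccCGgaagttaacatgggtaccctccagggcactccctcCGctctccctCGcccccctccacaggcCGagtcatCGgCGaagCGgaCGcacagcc
HNF4A: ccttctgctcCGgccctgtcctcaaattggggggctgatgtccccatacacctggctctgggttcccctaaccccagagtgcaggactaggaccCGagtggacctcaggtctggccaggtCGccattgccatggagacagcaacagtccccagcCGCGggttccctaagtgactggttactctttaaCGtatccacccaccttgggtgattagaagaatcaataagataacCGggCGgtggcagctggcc

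The HHEX stretch held 38 CG dinucleotides, the ONECUT1 stretch 22 and the PROX1 stretch 11. The FOXA2 and HNF4A stretches held 8 each. The sequence just upstream of the deposited starts thus did not rank FOXA2 above HNF4A, although the wider windows did. These 2 stretches are not alike, because the deposited FOXA2 start lies 883 bp upstream of the canonical one and that of HNF4A is canonical. Over the full 6 kb, CpG dinucleotides numbered 356 at HHEX, 351 at FOXA2, 294 at ONECUT1, 230 at FOXA3, 226 at PROX1, 165 at HNF4G and 116 at HNF4A. The median over all bivalent promoters was 219, and it was 79 over promoters with neither mark. The CpG-dense stretch of FOXA2 lay mainly downstream of the deposited start, as the profile of CpG counts shows.

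**Figure D1:**
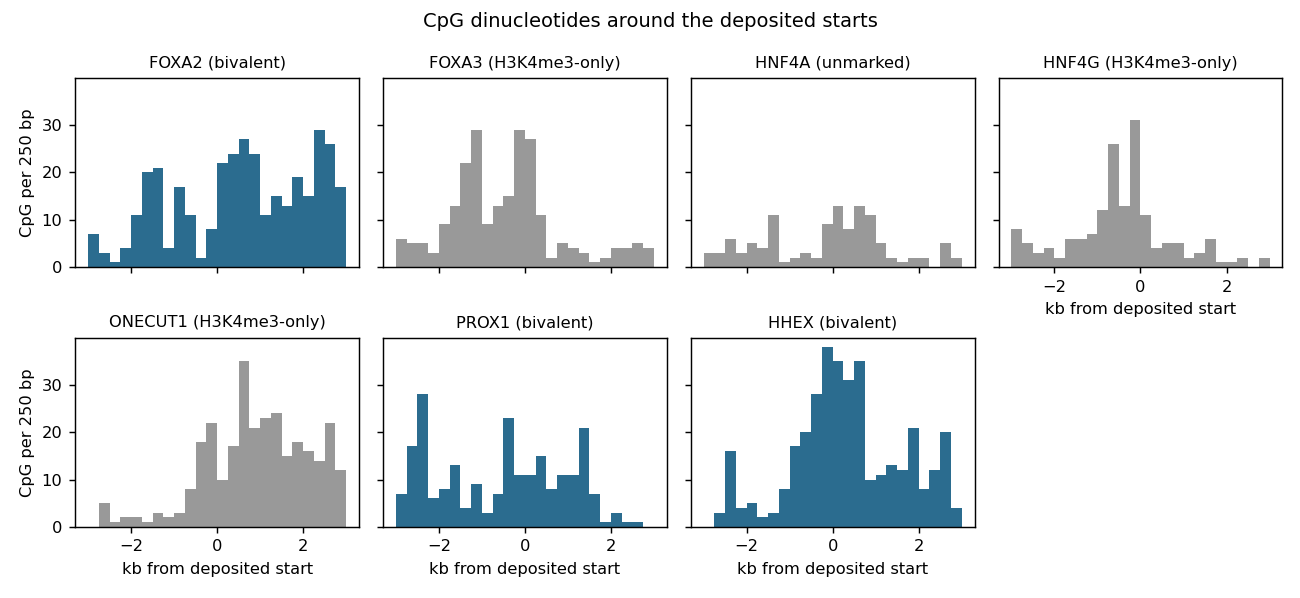
CpG dinucleotides per 250 bp (y axis) against the distance in kb from the deposited start, in the direction of transcription, for the 7 members with a placed start. Blue bars are promoters bivalent in −Dox cells and gray bars the others. HHEX peaks at the start, with 38 CpG in the bin just upstream of it, FOXA2 and ONECUT1 are dense downstream, FOXA3 has a second peak more than 1 kb upstream, and HNF4A is low throughout.

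Short binding motifs of the same factors were looked up in these 250-base stretches on both strands. The ONECUT core ATCAAT was found 33 bases upstream of the deposited HNF4A start and, on the opposite strand, 166 bases upstream of the deposited FOXA2 start. It occurs in 4.25% of the 18239 stretches searched. A forkhead core (TGTTTA or TGTTTG) was found in 1 of the 7 placed members, FOXA2, against 17.4% of all stretches. The HNF1 motif GTTAAT was found in none of the 7, against 4.78% of all stretches. Likewise, no member held the HNF4 site CAAAGTCCA, which occurs in 0.313%. These matches are letters in a sequence and not measured binding.

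Depth set what could be read. The step of the values corresponded to between 2629351 and 3509244 reads per library, and 1 read added about 1.27 to the H3K27me3 value of a promoter in −Dox and 1.25 in +Dox cells. For H3K4me3, 1 read added about 0.955 and 1.26. The median promoter therefore had about 4.78 and 4.76 H3K27me3 reads, and about 43.3 and 30.9 H3K4me3 reads. The step was 0.373 in both +Dox libraries, that is, the same total of 2682085 reads for both antibodies, and whether 1 total had been used for both was not tested. All intervals below are 95% intervals on approximate reads and cover counting error only, since PCR copies of 1 fragment cannot be recognized in these values. As a check of the cell type, 9 of 10 pluripotency markers carried H3K4me3 only, as did 54.2% of all promoters, with a median H3K4me3 value of 148 in −Dox and 127 in +Dox cells. The medians over all promoters were 41.3 and 38.8. The exception, POU5F1, was unmarked at its deposited start.

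The first question was which of the 8 promoters carried the marks before induction. With a value above 20 counted as marked, 4 of the 8 were bivalent in −Dox cells (FOXA1, FOXA2, PROX1 and HHEX), against 9.42% of all promoters. FOXA3, HNF4G and ONECUT1 carried H3K4me3 only, and HNF4A was unmarked at the measured start. The 4 bivalent members all lay above the 95th percentile of H3K27me3 in −Dox cells, whereas H3K27me3 at the other 4 was between 3.42 and 7.23, around the median promoter (6.09).

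H3K27me3 in −Dox cells was in the order FOXA1 (137, interval 112 to 165), FOXA2 (114, 91.1 to 140), HHEX (70.0, 52.8 to 91.2), PROX1 (52.9, 37.5 to 70.9), HNF4G (7.23), FOXA3 and HNF4A (both 4.18) and ONECUT1 (3.42). Each neighbor in this order overlapped the next in its interval, except for the gap between PROX1 and HNF4G, whose interval ended at 16.6. FOXA2 and HHEX overlapped by the smallest margin. The order of H3K4me3 was different. FOXA3 was highest with 131 (110 to 155), followed by PROX1 with 71.8 (56.3 to 89.7), FOXA2 with 51.0 (37.9 to 66.2), HHEX with 46.2, ONECUT1 with 37.3, HNF4G with 33.3, FOXA1 with 23.9 (15.4 to 35.2) and HNF4A with 5.13 (1.55 to 11.1). FOXA3 stood clear of PROX1, and HNF4A of FOXA1, but the neighbors between them overlapped. FOXA1 thus combined the highest H3K27me3 of the group with the lowest H3K4me3 of its bivalent members.

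**Figure D2:**
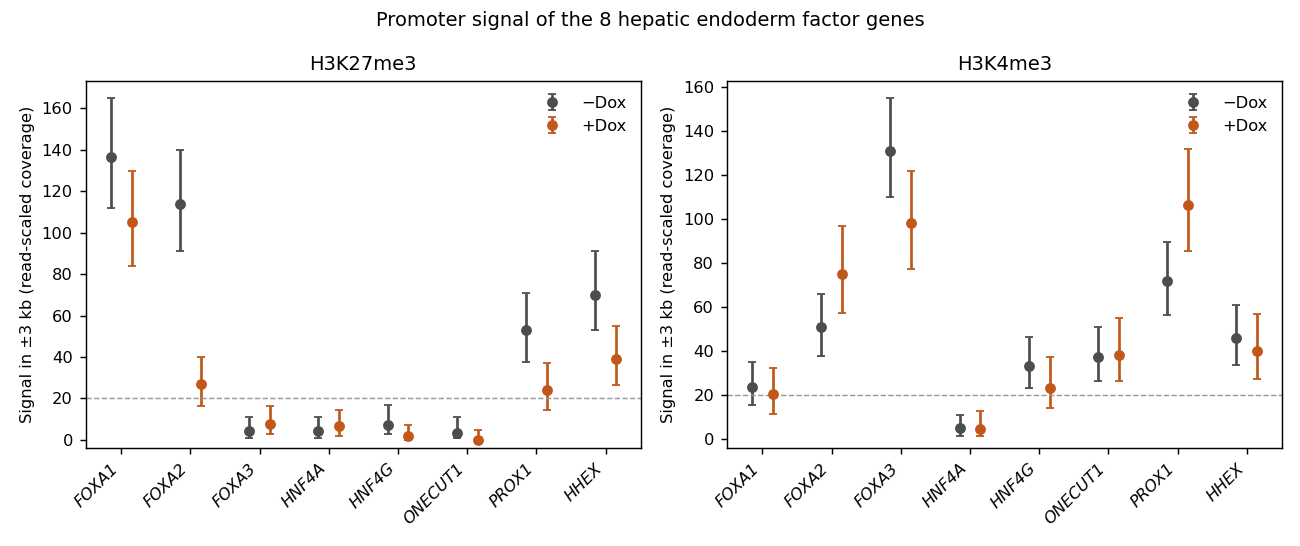
Signal within 3 kb of the start (read-scaled coverage, y axis) of the 8 genes for H3K27me3 (left) and H3K4me3 (right), in −Dox (gray) and +Dox (orange) cells. Points are the single library of each condition, bars are 95% Poisson counting intervals, and the dashed line is the class threshold of 20. H3K27me3 at FOXA2 is 114 in −Dox and 26.8 in +Dox cells with intervals far apart, and 4 of the genes are near 0 in both.

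Whether JMJD3c lowered H3K27me3 at these genes was examined next. A ratio was computed for the 7 members with more than 3 approximate reads in at least 1 of the libraries. The ratio was below 1 at 5 of the 7, against 56.1% of all 17763 promoters with a ratio. It was below 0.5 at 3 (FOXA2, PROX1 and HNF4G), against 21.5%, and above 2 at none, against 15.1%. The interval of the ratio lay below 1 at 3 members (FOXA2, PROX1 and HHEX), against 7.70% of all promoters, and above 1 at none, against 1.74%. The 3 members with intervals below 1 were all bivalent. FOXA3, HNF4A and HNF4G had about 3.28, 3.28 and 5.67 −Dox reads, which left little room for an interval below 1. Low ratios were more frequent in the bivalent class. However, this class is chosen by a high −Dox H3K27me3 value, which is also the denominator of the ratio. Such a choice by itself favors low ratios, and how much it adds was not tested. Among the 1907 bivalent promoters, 40.8% had a ratio below 0.5, 61.4% a ratio below 0.66 and 48.2% an interval below 1, against 2, 3 and 3 of the 4 bivalent members. With only 4 members these shares are near those of the class. The median log2 ratio of the 4 was −0.98, compared with −0.81 for the class.

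FOXA2, a pioneer factor of definitive endoderm, was the member with the lowest ratio. H3K27me3 at FOXA2 (ENSG00000125798) was 114 in −Dox and 26.8 in +Dox cells, or about 89.3 and 21.4 reads, which is a ratio of 0.236 (0.137 to 0.377). This ratio ranked 132 among the 1907 bivalent promoters from the lowest. Of the 304 bivalent promoters with an H3K27me3 value of at least 100 in −Dox cells, 12.5% had a ratio below 0.5, compared with 40.8% of the 1907. Both groups are cut on the −Dox value, and ratios of promoters near the threshold rest on fewer reads. The 2 shares therefore do not show that highly marked promoters kept more of the mark. Among those 304, FOXA2 ranked 4 from the lowest. The extent of the change beyond this window was not measured. No other promoter with a placed start lay within 100 kb, but only 90.1% of the promoters could be placed.

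FOXA1 (ENSG00000129514), the paralog with overlapping roles in liver specification, kept most of its read-scaled signal. Such values do not show a loss shared by the whole genome, and the paper's immunoblots had lower total H3K27me3 after Dox. How much of the mark FOXA1 lost in absolute terms was therefore not measured. Its H3K27me3 values were 137 and 105, a ratio of 0.770 (0.573 to 1.04), which ranked 114 of the same 304. The FOXA1 and FOXA2 intervals did not overlap. Both genes therefore started from similar H3K27me3 levels, with overlapping intervals, and ended at 105 (83.9 to 130) and 26.8 (16.3 to 40.2).

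The homeodomain genes lay between these values. PROX1 (ENSG00000117707), which hepatoblasts need to migrate into the surrounding tissue, went from an H3K27me3 value of 52.9 without to 24.2 with Dox, with a ratio of 0.458 (0.25 to 0.803). HHEX (ENSG00000152804), one of the earliest markers of the liver bud, had values of 70.0 and 39.1 and thus a ratio of 0.559 (0.345 to 0.876). With both libraries set to an equal total, which multiplies H3K27me3 ratios by 1.18, the HHEX interval became 0.406 to 1.03 and included 1. The PROX1 and HHEX intervals overlapped each other and that of FOXA1. With the FOXA2 interval, PROX1 shared the stretch from 0.25 to 0.377, and HHEX only that from 0.345 to 0.377.

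**Figure D3:**
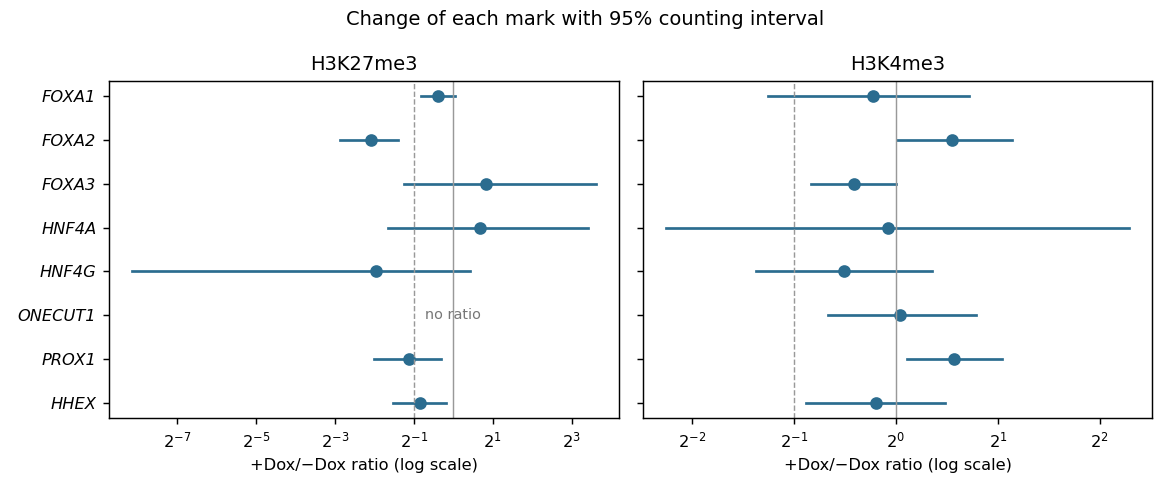
The +Dox/−Dox ratio (x axis, log scale) of H3K27me3 (left) and H3K4me3 (right) for each gene. Points are ratios, lines are 95% counting intervals, the solid vertical line is a ratio of 1 and the dashed line 0.5, and ONECUT1 has no H3K27me3 ratio. FOXA2, PROX1 and HHEX lie below 1 with their whole interval for H3K27me3, and FOXA2 and PROX1 lie above 1 for H3K4me3.

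**Figure D4:**
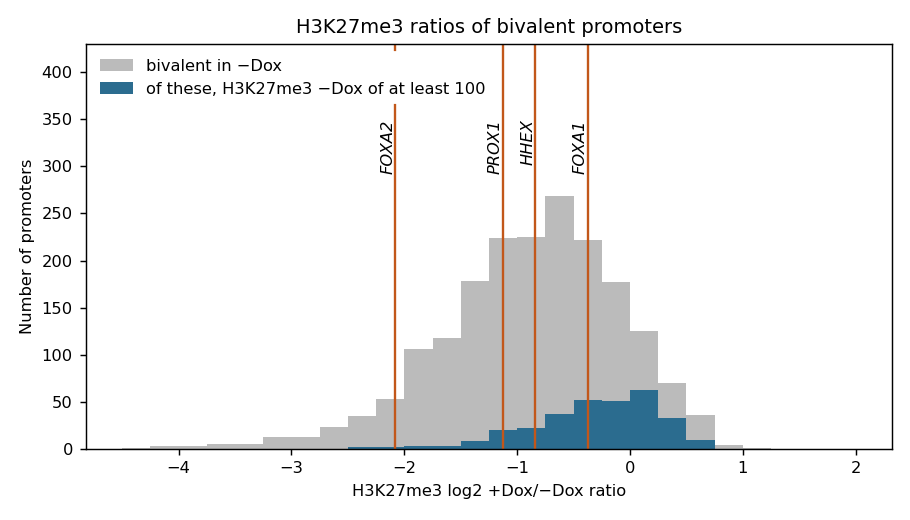
Number of bivalent promoters (y axis) by H3K27me3 log2 ratio (x axis, bins of 0.25), for all 1907 (gray) and for the 304 with a −Dox value of at least 100 (blue), with the 4 bivalent members as orange lines. The 1 promoter below the left end of the axis is drawn in the first bin. FOXA2, at −2.08, lies in the left tail of the blue bars, and FOXA1, at −0.38, lies among the bulk of them.

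At the remaining genes H3K27me3 was too low to be followed. HNF4G had values of 7.23 and 1.86, about 5.67 and 1.49 reads, and its ratio of 0.258 had an interval of 0.00356 to 1.35. FOXA3 had values of 4.18 and 7.46 with a ratio of 1.78 (0.420 to 12.2), and HNF4A had values of 4.18 and 6.71 with a ratio of 1.6 (0.319 to 10.6). ONECUT1 had 3.42 in −Dox cells, about 2.69 reads, and 0 in +Dox cells, where a count of 0 allows up to 3 reads, a value of 3.76, and the 95% interval ends at 4.62. A change was not detectable at this depth at any of these 4 promoters.

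H3K4me3 was then compared at the same promoters. None of the 8 ratios was below 0.5 or above 2, against 4.80% and 5.63% of all 18905 promoters with a ratio. The median log2 H3K4me3 ratio was −0.14, with −0.03 over all promoters. The interval lay above 1 at 2 members, PROX1 and FOXA2, against 1.84% of all promoters, and below 1 at FOXA3, against 3.19%.

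PROX1 had H3K4me3 values of 71.8 without and 107 with Dox, that is, a ratio of 1.49 (1.08 to 2.06). FOXA2 had values of 51.0 and 74.9, a ratio of 1.47 (1.01 to 2.20). Among the 1907 bivalent promoters these were the 43rd and 48th highest H3K4me3 ratios (ranks 43 and 48), and an interval above 1 was found at 1.63% of the class. Both genes therefore had less H3K27me3 and more H3K4me3 in +Dox cells. The combination of an H3K27me3 interval below 1 and an H3K4me3 interval above 1 was met by 2 of the 4 bivalent members and by 1.36% (26) of all bivalent promoters. The class had a lower median −Dox H3K27me3 value, 42.98 compared with 91.85 for the 4 members, and so fewer reads. Of 823 bivalent promoters with −Dox values of 50 or more, 231 had an H3K27me3 ratio below 0.5. Of these, 106 had an H3K4me3 ratio above 1. From 100 or more, 38 of 304 had such an H3K27me3 ratio, and 21 of the 38 had an H3K4me3 ratio above 1. By ratio alone, less H3K27me3 with more H3K4me3 was thus not particular to the members. The H3K4me3 part of the combination was close to the limit. After the median ratio of promoters with low H3K4me3 was set to 1, which multiplies H3K4me3 ratios by 0.917, both intervals included 1, with lower bounds of 0.991 at PROX1 and 0.929 at FOXA2.

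At the other bivalent members the H3K4me3 interval included 1, and it overlapped those of FOXA2 and PROX1. HHEX had H3K4me3 values of 46.2 and 40.3 with a ratio of 0.872 (0.543 to 1.4), and FOXA1 had 23.9 and 20.5 with a ratio of 0.857 (0.420 to 1.64). All 4 bivalent members were still above 20 for both marks in +Dox cells, compared with 51% of the class. The members had started higher, with a median −Dox H3K27me3 value of 91.85 compared with 42.98 for the class, so these shares are not of like promoters. Several stood close to the threshold, with 20.5 for H3K4me3 at FOXA1 (11.5 to 32.6). For H3K27me3, PROX1 had 24.2 (14.3 to 37.2) and FOXA2 had 26.8 (16.3 to 40.2).

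**Figure D5:**
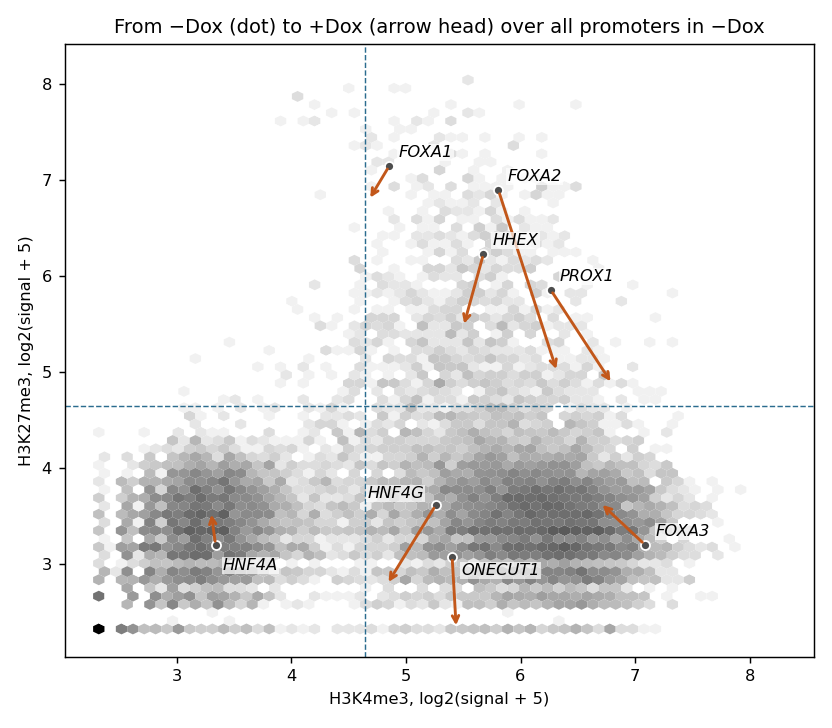
H3K27me3 against H3K4me3, both as log2(signal + 5), with a dot for each gene in −Dox cells and an arrow to its +Dox position. The gray shading is the number of promoters in −Dox cells (darker is more, log scale), and the dashed lines are the threshold of 20. The FOXA2 and PROX1 arrows run down and to the right, FOXA1 and HHEX move down and slightly left, and all 4 remain in the bivalent sector.

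FOXA3 (ENSG00000170608), the forkhead paralog of later liver, had the highest H3K4me3 of the group, with 131 in −Dox and 98.4 in +Dox cells and a ratio of 0.752 (0.560 to 0.997). Its interval included 1 after scaling to an equal total (0.574 to 1.02). This window overlaps that of SYMPK, a gene for a scaffold protein of mRNA 3′ end processing, which starts 1179 bp away on the opposite strand. SYMPK had nearly the same H3K4me3 values, 131 and 96.9, with a ratio of 0.738 (0.548 to 0.978). The signal of the 2 promoters cannot be told apart in these windows.

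HNF4A (ENSG00000101076) had H3K4me3 values of 5.13 and 4.85, about 5.37 and 3.86 reads, and so lacked both marks at the upstream start in both conditions. ONECUT1 (ENSG00000169856) had 37.3 and 38.4 with a ratio of 1.03 (0.631 to 1.72), which became 0.943 with scaling over low promoters. HNF4G (ENSG00000164749, window 76317271 to 76323271 of chromosome 8) had 33.3 and 23.5 with a ratio of 0.704 (0.386 to 1.28). The ONECUT1 window had more CpG dinucleotides than the median bivalent promoter and nearly no H3K27me3. Its paralogs ONECUT2 and ONECUT3, which were singled out after their values were seen, had H3K27me3 values of 174 and 232 in −Dox cells. In +Dox cells they had 199 and 338, with ratios of 1.15 (0.909 to 1.46) and 1.46 (1.20 to 1.77).

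The nearest measured promoters were looked up next. Only the 18244 promoters with a placed start could be searched. Among these, no other promoter lay within 100 kb of FOXA2, PROX1 or HNF4G, and 1 lay within this distance of HHEX. This was KIF11, a mitotic kinesin gene, at 96.8 kb, with H3K27me3 values of 6.85 and 6.71. Near HNF4A, R3HDML at 18.7 kb had H3K27me3 values of 1.14 and 13.8 and a ratio of 12.1 with an interval of 1.57 to 466 that rests on very few −Dox reads. FITM2 at 44.5 kb had 4.94 and 5.97. FAM214A, 81.3 kb from ONECUT1, had 6.47 and 7.83.

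The promoters with the most similar values over the 4 libraries, by Euclidean distance on log2(signal + 5), were listed for 2 members. For FOXA2 they were AUTS2 (distance 0.379), PKNOX2 (0.413) and FLRT2 (0.425). AUTS2 had H3K27me3 values of 108 and 30.2 and H3K4me3 values of 63.0 and 86.9. For FOXA1 the closest was GATA2 (0.153), which had H3K27me3 values of 130 and 108 and H3K4me3 values of 21.7 and 21.6.

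Genes upstream, beside and downstream of these factors were described as lists. Of 20 other endoderm and liver regulators, 8 were bivalent, 2 H3K27me3-only, 4 H3K4me3-only and 6 unmarked in −Dox cells. Over all promoters, 9.42% were bivalent, 1.58% H3K27me3-only, 54.2% H3K4me3-only and 34.8% unmarked. The median log2 H3K27me3 ratio was −0.17, near the −0.15 of all promoters, and 2 of the 19 with a ratio were below 0.5, against 21.5% of all promoters (NR1H4 and NR0B2, with intervals that included 1). The interval lay below 1 at TBX3, a T-box factor of hepatoblasts, with a ratio of 0.562 (0.385 to 0.816), and at EOMES, a T-box factor of early endoderm, with 0.602 (0.422 to 0.856). It lay above 1 at ONECUT3 and at PPARA, a fatty acid receptor, with 1.98 (1.04 to 4.17). The H3K4me3 interval lay below 1 at 2 of the 20, against 3.19% of all promoters, and above 1 at 0, against 1.84%. The 2 were SOX17, with a ratio of 0.191 (0.0436 to 0.480), and CEBPB, with 0.683 (0.506 to 0.930). SOX17 was bivalent in −Dox and H3K27me3-only in +Dox cells.

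The pancreas and gut endoderm regulators had a higher median H3K27me3 value than the members. All 10 were above 20 for H3K27me3 in −Dox cells, against 11% of all promoters, with 7 bivalent and 3 H3K27me3-only, and the median value was 144, compared with 30.1 over the 8 members. No member lay near 30.1, and the median over the 4 bivalent members was 91.85. The median H3K4me3 value was lower in this list, 32.5 compared with 41.8. The interval lay below 1 at PAX4 (0.218, 0.0611 to 0.548), NEUROG3 (0.330, 0.209 to 0.5) and SOX9 (0.437, 0.226 to 0.808). It lay above 1 at PDX1, the master regulator of pancreas, with 1.35 (1.11 to 1.62), and at CDX2, an intestinal regulator, with 1.29 (1.03 to 1.62).

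Most products of mature hepatocytes carried neither mark. Of 20 such genes, including AFP, ALB and TTR, 16 were unmarked, 3 H3K4me3-only and 1 bivalent in −Dox cells, against 34.8%, 54.2% and 9.42% of all promoters. The median H3K27me3 values were 6.28 and 5.78 and the median H3K4me3 values 5.56 and 6.34. The bivalent one was CYP1A1, a cytochrome P450 gene, with 31.6 and 15.3 for H3K27me3 and a ratio of 0.484 (0.216 to 0.975). It was H3K4me3-only in +Dox cells. The interval of the H3K27me3 ratio included 1 for the other 16 hepatocyte genes with a ratio.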

How the data were processed

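H3K27me3 and H3K4me3 were measured by ChIP-seq in −Dox and +Dox JMJD3c-hESCs, with 1 library in each of the 4 groups. The authors mapped single-end MiSeq reads to hg19 with Bowtie2, excluded mitochondrial reads and deposited ngs.plot signal, that is, coverage scaled to library reads and summed within 3 kb of 1 start per Ensembl gene. CASAVA 1.4 is also named in the submitters' processing notes. The versions of Bowtie2 and ngs.plot are not given in the sources used here. The methods of the study also describe a normalization to read density past transcription ends, which may or may not be part of these values. Input reads were not used here. A scaling to library reads does not show a loss shared by the whole genome.

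Every value was a whole multiple of a step per library (100% within 0.01 of a step). Peaks of low values were 3.35 to 3.37 steps apart, which was taken as the data points covered by 1 read and used to estimate reads. A value of 20, the threshold of the study's methods, equalled about 15.7 to 20.9 reads. Ratios are plain +Dox/−Dox values, given where more than 3 reads were present in 1 library and the −Dox value was above 0. This left out 2479 promoters for H3K27me3 and 1337 for H3K4me3. For ratio intervals, the share of reads in +Dox cells was given a Clopper-Pearson interval (scipy 1.17.1), which was turned into a ratio. These intervals were tested on simulated reads that had counting error only. The simulation left out promoters with as few reads as H3K27me3 had at FOXA3, HNF4A, HNF4G and ONECUT1. The intervals compare libraries and not conditions.

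Positions and base composition are from GRCh37, the assembly behind hg19, through GENCODE 44 lifted to it, in which 18244 of the deposited transcripts (90.1%) were found, with the same strand for 100%. The members and lists were chosen with earlier results of these data known. All 8 members are named. From each list the 2 lowest and 1 highest H3K27me3 ratio above the threshold are named, and others were named after their values were seen. Alternatives were 2 scalings, a pseudocount of 5, a minimum mean of 10, class thresholds of 10 and 30, classes from +Dox cells and, added after seeing the data, 3.2 or 3.5 data points per read.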

Additional observations from a re-analysis of the deposited data

How the results depend on the processing

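Of 31 recomputed counts and medians over the members, 22 stayed near the reported value, and none of the medians changed sign. A count of 3 in place of 4, or of 2 in place of 3, was taken as near. At a class threshold of 30, FOXA1 left the bivalent class, in which 3 members remained. All 45 recomputed ratios of single genes stayed within their intervals. For the 2 scalings this was fixed in advance, since they multiply ratios by 0.917 to 1.18 and every interval reaches further to each side. With a pseudocount of 5, H3K27me3 was below 0.5 at 1 member (FOXA2) in place of 3. The median log2 H3K27me3 ratio over the 7 members with a ratio was −0.84. With both libraries at an equal total, it was −0.60. With a minimum mean of 10 the median log2 H3K27me3 ratio was −0.98, over 4 members. With the median ratio of low promoters set to 1, the median log2 H3K4me3 ratio was −0.26 and the H3K4me3 interval lay above 1 at 0 members in place of 2. It lay above 1 at 1 member, PROX1, with 3.5 points per read. The interval of FOXA3 no longer lay below 1 with the same total or with 3.2 or 3.5 points per read, which left 0 members. The causes were not tested beyond what each setting changes. The same-total scaling adds 0.24 to every log2 H3K27me3 ratio, and the low-promoter scaling adds −0.12 to every log2 H3K4me3 ratio. No paired analysis was possible because the design has a single library per group, and leaving out a library would leave nothing to compare. Depth limits HNF4A, HNF4G, FOXA3 and ONECUT1, where H3K27me3 rests on fewer than 6 reads in each library.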
